A study of Mus musculus with 6 samples.

Results

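The genes described here encode the tubulins, the kinesins and a few proteins that bind microtubules, as measured by RNA sequencing in mouse microglia, the resident macrophages of the brain. Members were taken by symbol: every gene whose name starts with Tuba, Tubb, Tubg, Kif or Klc, pseudogenes left out, with Stmn1, Mapre1, Mapre2 and Map4 added. They numbered 76 of 48005 gene entries, and no measured value was used to choose them. The control group was 3 libraries of CD1 microglia in culture under control treatment, and the other group was 3 libraries of the same kind of culture given extracellular vesicles (EVs), small membrane particles that cells shed. The EVs came from neural stem cells grown from the subventricular zone of CD1 mice and were spun down in steps. Libraries carry the letters A, B and C of their titles. Age, sex, dose and length of treatment, and the content of the control treatment, were not given in the sources used here. The labels do not say whether a group's libraries came from separate cultures or animals, so each p-value measures the spread between these libraries, which may be technical.

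Microtubules are hollow filaments built of pairs of alpha- and beta-tubulin, each made from several genes called isotypes, and they grow from templates that hold gamma-tubulin. Most kinesins are motors that walk along microtubules. One set builds and moves the mitotic spindle and is made mainly in dividing cells, and another carries vesicles and organelles, in part through light chains that hold the cargo. In microglia and other macrophages, microtubules shape the cell processes and carry endosomes and secretory vesicles.

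The libraries held 109744701 to 162544804 counts over all exon bins, and member entries took 0.336% to 0.384% of them. Values are CPM, that is counts divided by TMM-adjusted library totals, and where levels of different genes are set side by side they are CPM per kilobase of exon. A gene was called, and is said to have risen or fallen, at an adjusted p under 0.05 in edgeR's quasi-likelihood test over 16605 entries with Benjamini-Hochberg adjustment. Log2 changes are log2 fold changes of EV-treated over control libraries, so that positive values are higher after EVs. EV-treated libraries stood far from control libraries as a whole: 66.5% of all entries tested were called, 33% as risen and 33.5% as fallen, so a call by itself is common in these data. Of 11 microglial markers 8 fell and 3 were not called, with summed levels of 6948 to 8689.7 CPM over the control libraries and 3661 to 3699 CPM over the EV-treated ones. Over the 11 the median log2 fold change was -1.16 and the lowest was -7.09. Csf1r and Itgam were among those not called, at log2 fold changes of 0.06 and 0.03. Markers of other cell types moved as well. Those of the oligodendrocyte lineage summed to 218 to 444 CPM over the control libraries and 35.4 to 47.5 CPM over the EV-treated ones, with 1 of 6 tested risen and 2 fallen. Most of that sum was Cspg4, which is also made by pericytes, while Mog and Olig1 were at most 0.0424 CPM in any library. Mbp stood at 36.1 to 42.5 CPM over the control libraries and 8.4 to 10.3 CPM over the EV-treated ones. Mag stood at 4.05 to 4.96 and 3.3 to 4.86 CPM, and Pdgfra at 0.244 to 0.296 and 2.74 to 3.26 CPM. Astrocyte markers summed to 14.9 to 20.4 CPM and 94.9 to 131 CPM, with 4 of 6 tested risen (Slc1a2 and Gja1 among them) and 1 fallen. Aldh1l1 went down, from 10.6 to 15.3 CPM over the control libraries to 1.04 to 2.29 CPM over the EV-treated ones. Gfap and Aqp4 were at most 0.143 CPM. Endothelial markers summed to 4.6 to 6 CPM and 24.6 to 35 CPM, with all 3 tested risen and Cldn5 at most 0.0156 CPM, and fibroblast and mural markers to 13.6 to 36.4 CPM and 12.8 to 19 CPM, with 2 of 4 tested risen and 1 fallen. The part of such cells in the values below was not tested. The ratio of Y-linked to Xist counts, on a log2 scale, was -1.35, -1.65 and -3.86 in control A, B and C and -4.86, -4.90 and -5.51 in EV-treated A, B and C. The groups did not overlap in that ratio, so it and the treatment cannot be told apart, and counts with it as a covariate are given beside the main ones.

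Of the 76 members 67 had enough counts to be tested. Among these 23 rose, 28 fell and 16 were not called. In 25 the EV-treated libraries all lay above the control libraries and in 28 all below, beside 71.3% of all entries tested that did not overlap in one direction or the other. The share of members called was 76.1%, the median log2 fold change was 0.01 (-0.02 over all entries), and the changes ran from -6.72 to 2.62. With the sex-linked ratio as a covariate 14 members rose and 17 fell, where 7271 of all entries were called. With library totals in place of TMM, 13 rose and 34 fell. That scaling moved the median of all entries to -0.38 and the share of rises among all calls to 34.01%, from 49.7%. Directions of small changes therefore hold for the TMM scale: under library totals 14 members took the other sign. Of these, 4 had been called (Tuba1c, Mapre1, Klc2 and Kif28), and their values are given with their results below. The other 10 were not called on the TMM scale and stood at -0.36 to -0.16 under library totals: Tubb1, Tubgcp2, Tubgcp3, Map4, Kifc1, Kif1b, Kif1bp, Kif5b, Kif21a and Kifap3. With upper-quartile scaling 7 of them, all but Kif1b, Kif1bp and Kifap3, also turned. Where leaving out a library or another setting ended a member's call, or gave one, this stands in parentheses beside its value. Of the 9 untested members, 7 had at most 7 counts in any library: Tuba3a, Tuba3b, Tubal3, Kif12, Kif26a, Kif6 and Kif16bos, an RNA named for its antisense position to Kif16b. Tuba8 had at most 18, and Kif2b had 0 counts in every library, so that only a level under about 3 counts per library is allowed by the depth.

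**Figure D1:**
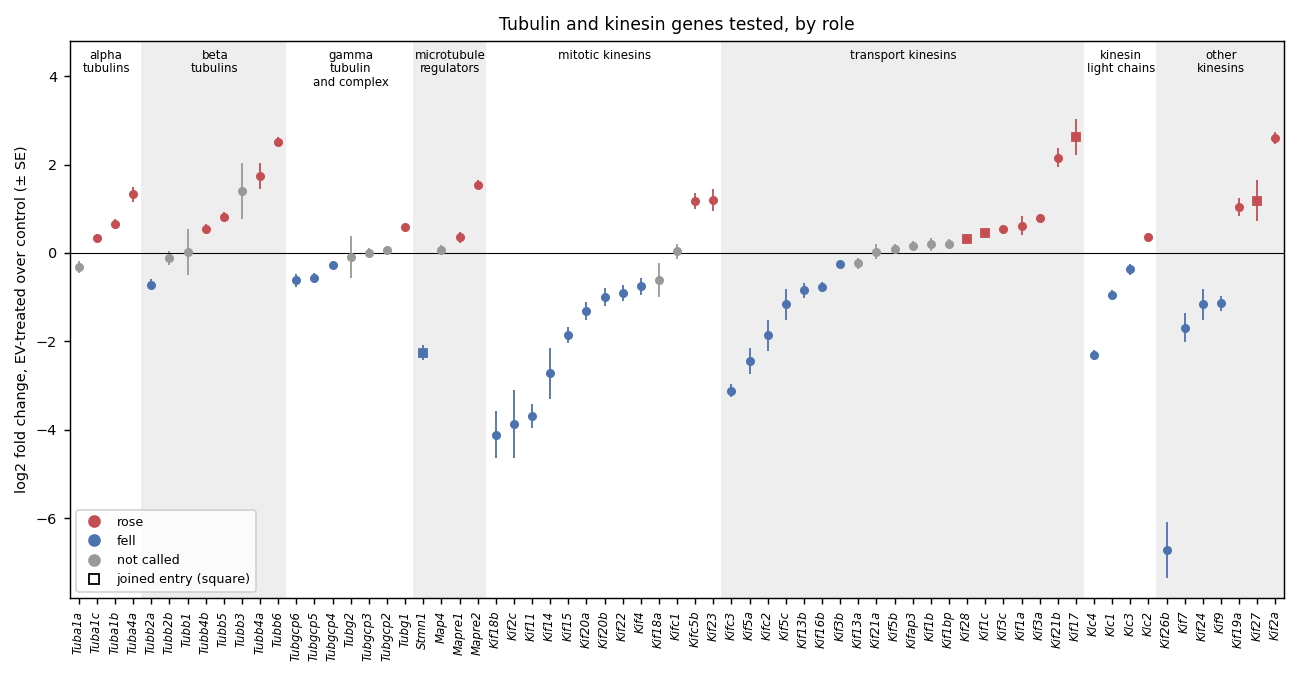
Log2 fold change of the 67 tested members (vertical axis, EV-treated over control, bars ± SE) in order of size within each role. Red points rose, blue points fell and grey points were not called, and squares are entries that join 2 genes. Mitotic kinesins lie mostly below 0, with 9 fallen and 2 risen, and the alpha- and beta-tubulins mostly above, with 7 risen and 1 fallen.

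Among the alpha-tubulins, 3 of 4 tested genes rose and Tuba1a was not called, and among the beta-tubulins 4 of 8 rose and 1 fell. Tubb6, a beta isotype expressed in many tissues, made the largest rise of any tubulin tested. It measured 54.7, 51.5 and 48.1 CPM in control A, B and C and 299.6, 311 and 275 CPM in EV-treated A, B and C. Every EV-treated library was above every control library, 5.74-fold on average, with a log2 change of 2.52 ± 0.11 (SE, adjusted p = 6.65e-08). Tubb5, the beta isotype with the most CPM per kilobase in both groups, measured 340.5, 348 and 351 CPM in control A, B and C and 631, 657 and 545 CPM in EV-treated A, B and C. It rose 1.76-fold without overlap, with a log2 change of 0.82 ± 0.11 (SE, adjusted p = 0.00015). Tubb4b, another broadly expressed isotype, measured 44.3, 48.8 and 39.1 CPM in the control libraries and 63.4, 69.3 and 61.2 CPM in the EV-treated ones, with a log2 change of 0.55 ± 0.11 (SE, adjusted p = 0.00159, call lost with library totals), and Tubb4a, known from oligodendrocytes and neurons, stayed low at 0.797, 0.788 and 0.435 CPM in the control libraries and 2.52, 1.71 and 2.48 CPM in the EV-treated ones while rising with a log2 change of 1.74 ± 0.29 (SE, adjusted p = 0.000455). Tubb2a, a beta isotype abundant in brain, was the tubulin that fell. Its levels were 71.7, 79.7 and 70.6 CPM in control A, B and C and 48.1, 48.2 and 38.9 CPM in EV-treated A, B and C, which did not overlap, with a log2 change of -0.71 ± 0.12 (SE, adjusted p = 0.000392, call lost with the covariate). Its near copy Tubb2b was not called (23, 26.5 and 20.1 CPM in the control libraries and 22.7, 24.8 and 17.1 CPM in the EV-treated ones, log2 fold change -0.11, adjusted p = 0.577, called with library totals). Tubb3, which neurons make, and Tubb1, which platelets make, stayed at or under 0.308 and 0.197 CPM and were not called (log2 fold changes of 1.40 and 0.02, Tubb3 called without EV-treated C).

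Tuba1b, the main alpha isotype of these libraries, measured 103, 116 and 98.3 CPM in control A, B and C and 173, 176 and 153 CPM in EV-treated A, B and C. It rose 1.58-fold without overlap, with a log2 change of 0.66 ± 0.11 (SE, adjusted p = 0.000517). Tuba4a, the alpha gene whose product is made without the terminal tyrosine, measured 30.1, 24.3 and 18 CPM in control A, B and C and 57.4, 64.6 and 60.2 CPM in EV-treated A, B and C, and rose 2.52-fold with a log2 change of 1.33 ± 0.17 (SE, adjusted p = 8.33e-05). Tuba1c rose less, from 51.5, 48.6 and 50.5 CPM in the control libraries to 64.8, 63.8 and 60.7 CPM in the EV-treated ones, with a log2 change of 0.33 ± 0.09 (SE, adjusted p = 0.00902, call lost in 6 of 17 alternatives and among them without control B or EV-treated A), and with library totals in place of TMM its log2 change was -0.038. Tuba1a, the alpha isotype of growing neurons, was not called at 57.9, 63.2 and 45 CPM in the control libraries and 42.9, 47.7 and 42.7 CPM in the EV-treated ones, with a log2 change of -0.32 ± 0.13 (SE, adjusted p = 0.0584, called in 5 of 17 alternatives and among them without control C).

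Tubulin isotypes differ most in the last codons, which encode the acidic tail where enzymes add or remove amino acids. The last 60 coding bases with the stop codon, from GENCODE vM21 transcripts on GRCm38, are shown for the beta isotypes that carry the pool and lie outside the chromosome of Tubb6, to let their likeness be read. Capitals mark bases that did not match Tubb5 in a pairwise alignment.
Tubb5: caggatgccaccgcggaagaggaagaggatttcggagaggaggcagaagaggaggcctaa
Tubb2a: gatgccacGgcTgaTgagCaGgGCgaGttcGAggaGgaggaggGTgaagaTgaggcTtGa
Tubb2b: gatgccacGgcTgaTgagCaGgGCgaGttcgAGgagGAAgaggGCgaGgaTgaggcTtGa
Tubb4b: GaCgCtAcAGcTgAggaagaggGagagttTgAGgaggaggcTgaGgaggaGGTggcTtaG
Tubb5 (chr17:35833921-35838306), Tubb2a (chr13:34074301-34078008), Tubb2b (chr13:34127008-34130354) and Tubb4b (chr2:25222160-25224702) lie on the minus strand, and each line is written 5′ to 3′ on the coding strand. The tail of Tubb2a was 73.3% identical to that of Tubb5, and the tails of Tubb2b and Tubb4b were each 68.3% identical to it. Over the whole coding sequence Tuba1a and Tuba1b were 98.3% identical, Tuba1b and Tuba1c 97.9%, and Tubb2a and Tubb2b 96.5%, and how reads that fit both copies were counted was not given in the sources used here. Values of Tuba1a, Tuba1b and Tuba1c, and of Tubb2a and Tubb2b, are therefore uncertain against each other. Tubb6 and Tubb5 were 80.4% identical.

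The shares of the isotypes differed between the groups along with their level. Summed per kilobase, alpha-tubulin transcripts went from 122 ± 10.9 to 165 ± 9.35 CPM per kb (SD, n = 3), a ratio of 1.35. Beta-tubulin transcripts went from 214 ± 7.65 to 423 ± 35.1 CPM per kb (SD, n = 3), a ratio of 1.98. Both ratios hold for the TMM scale only. The TMM factors were 1.09 to 1.16 for control libraries and 0.855 to 0.921 for EV-treated ones, so library totals would lower both ratios. How much of the alpha rise would then be left was not tested. The alpha-to-beta ratio and the shares within a pool do not depend on this scaling. The alpha-to-beta ratio was 0.586, 0.593 and 0.533 in control A, B and C and 0.384, 0.382 and 0.402 in EV-treated A, B and C, without overlap. Within the beta pool the share of Tubb6 went from 13.7% ± 0.838 to 39.7% ± 0.846 (SD, n = 3). Tubb2a went from 21.8% ± 0.719 to 6.71% ± 0.301 (SD, n = 3) and Tubb5 from 48.8% ± 1.97 to 43.3% ± 0.599 (SD, n = 3), both downward although the level of Tubb5 rose. The shares of Tubb4b, from 9.86% ± 0.746 to 7.32% ± 0.32, and Tubb2b, from 5.63% ± 0.577 to 2.63% ± 0.286, were also lower (SD, n = 3). Within the alpha pool Tuba1b went from 46.3% ± 1.78 to 54.2% ± 1.34, Tuba4a from 5.31% ± 1.1 to 9.98% ± 0.629 and Tuba1a from 27.4% ± 2.31 to 16.4% ± 0.671 (SD, n = 3), all without overlap, and Tuba1c, from 20.9% ± 2.25 to 19.4% ± 0.652, overlapped. For each of the shares that did not overlap the exact 2-sided permutation p was 0.1, the smallest that 3 against 3 libraries allow, and 0.178 after adjustment over 16 isotypes, so none could pass 0.05. Counted in the bin at the 3′ end alone, the difference in the Tubb6 share was 28.7 percentage points in place of 26.0. In that bin Tubb6 held 42.9% to 44.2% of the beta pool in EV-treated libraries and Tubb5 36.5% to 37.5%. Which of them is larger after EVs thus depends on the measure. The difference in the Tuba4a share was then -0.37 in place of 4.67. For Tuba4a that is a 3′ untranslated bin of 1 of 8 transcripts, and it overlaps Stk16. It held 1.09% of the gene's counts in control and 0.0935% in EV-treated libraries, so it says little of the Tuba4a share.

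**Figure D2:**
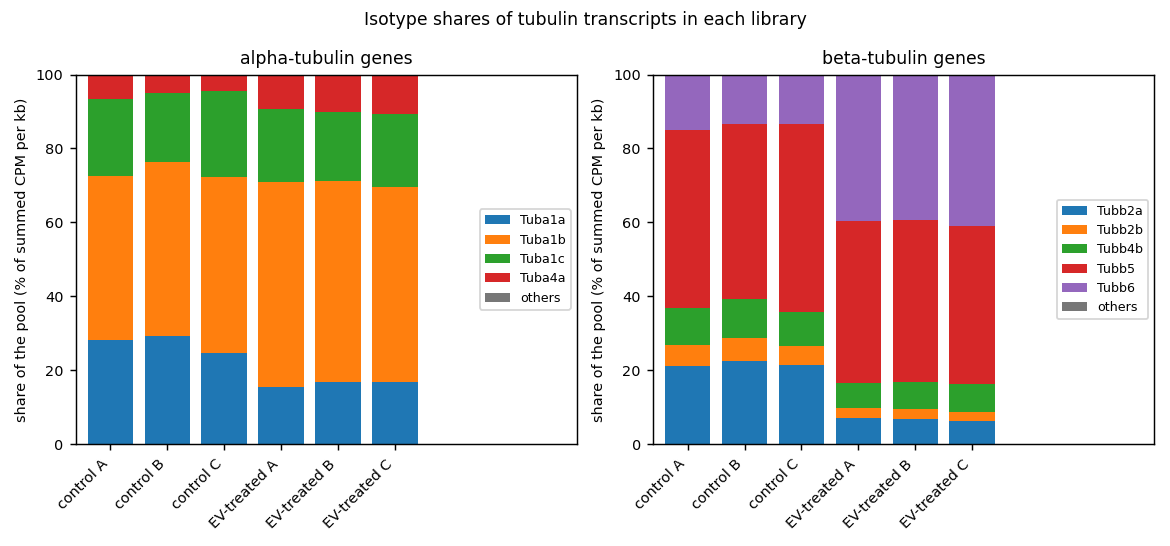
Shares of each alpha-tubulin gene (left) and beta-tubulin gene (right) in the summed CPM per kb of its pool, one bar per library. Tubb6 fills 13.2% to 14.7% of the beta pool in the control bars and 39.2% to 40.7% in the EV-treated bars. The Tubb2a segment spans 21.3% to 22.7% in the former and 6.39% to 6.99% in the latter.

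Gamma-tubulin and its ring complex, the template from which microtubules grow, showed small changes. Tubg1, the gamma-tubulin of most cells, measured 25.8, 27.3 and 23.5 CPM in control A, B and C and 40.4, 37.9 and 36.5 CPM in EV-treated A, B and C and rose 1.5-fold, with a log2 change of 0.58 ± 0.10 (SE, adjusted p = 0.000639, call lost with library totals). Of the proteins that assemble it into rings, Tubgcp6 fell from 33.1, 30.02 and 31.8 CPM in the control libraries to 23.4, 15.9 and 22.7 CPM in the EV-treated ones, with a log2 change of -0.61 ± 0.15 (SE, adjusted p = 0.00471, call lost with the covariate). Tubgcp5 fell from 27.5, 23.6 and 27.2 CPM in the control libraries to 18.7, 16.3 and 18 CPM in the EV-treated ones, with a log2 change of -0.57 ± 0.11 (SE, adjusted p = 0.00134), and Tubgcp4 from 39.3, 38.1 and 41.7 CPM in the control libraries to 34.3, 32.8 and 31.7 CPM in the EV-treated ones, with a log2 change of -0.27 ± 0.09 (SE, adjusted p = 0.0274, call lost with the covariate or without control A or control C or EV-treated B or EV-treated C). In each of these 3 the groups did not overlap. The core ring proteins Tubgcp2 (0.06, called in the top bin, the single bin with most counts) and Tubgcp3 (0.01) were not called, and with library totals in place of TMM their log2 fold changes turned to -0.31 and -0.36 and both were called as fallen. Tubg2 reached at most 0.772 CPM and was not called.

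Of the microtubule regulators, Mapre2, which encodes the plus-end binding protein EB2, rose and Stmn1, which encodes the tubulin-sequestering protein stathmin, fell. Mapre2 measured 79.7, 75.1 and 74.8 CPM in control A, B and C and 234, 221 and 214 CPM in EV-treated A, B and C. The groups were 2.92-fold apart without overlap, with a log2 change of 1.54 ± 0.10 (SE, adjusted p = 7.11e-07). Stmn1 measured 17.7, 26.6 and 19.2 CPM in control A, B and C and 4.26, 4.8 and 4.19 CPM in EV-treated A, B and C, 4.79-fold lower after EVs without overlap, with a log2 change of -2.26 ± 0.17 (SE, adjusted p = 2.15e-06). Its entry is joined to that of a small gene model, Gm23634, but bins of Stmn1 alone held 2144, 3183 and 3400 counts in control A, B and C and 495, 474 and 484 counts in EV-treated A, B and C. Mapre1, which encodes EB1, measured 102, 96.1 and 109 CPM in the control libraries and 132, 149.8 and 112 CPM in the EV-treated ones, with a log2 change of 0.35 ± 0.13 (SE, adjusted p = 0.0312, call lost in 9 of 17 alternatives and among them without control A or control B or EV-treated A or EV-treated B). Its log2 change was -0.019 with library totals and -0.055 in the top bin. Map4, a broadly expressed protein that stabilises microtubules, was not called, at 231, 215 and 258 CPM in the control libraries and 256, 218 and 261 CPM in the EV-treated ones, with a log2 change of 0.06 ± 0.12 (SE, adjusted p = 0.662).

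**Figure D3:**
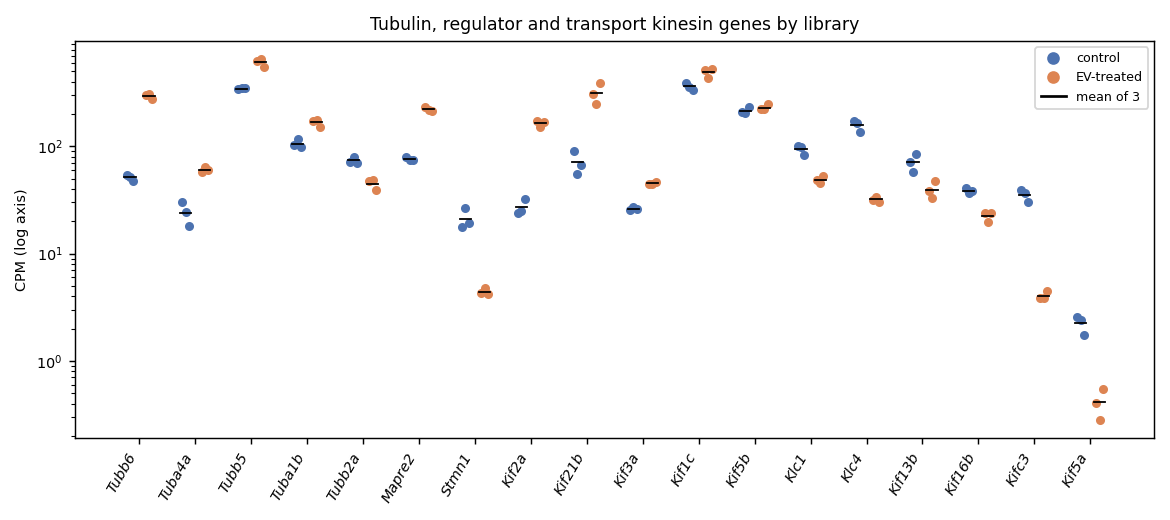
CPM of tubulin, regulator, transport kinesin and light chain genes with Kif2a in each library (log axis), 3 control points in blue and 3 EV-treated points in orange per gene, with the mean as a line. Tubb6, Mapre2, Kif2a and Kif21b sit higher in every EV-treated library, Stmn1, Klc4, Kifc3 and Kif5a lower in every one, and Kif5b overlaps.

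Mitotic kinesins were low in these cultures, at no more than 11.3 CPM in any library, and most fell: of 13 tested, 9 fell, 2 rose and 2 were not called, with a median log2 fold change of -0.99. Over all entries tested 33.5% fell. Their summed level was 31.2 to 41.4 CPM over the control libraries and 24.2 to 27.8 CPM over the EV-treated ones. The deepest falls were in Kif18b, which controls the length of astral microtubules, in Kif2c, which depolymerises microtubules at kinetochores, and in Kif11, the motor that pushes the spindle poles apart. Kif11 measured 1.88, 2.81 and 2.3 CPM in control A, B and C and 0.218, 0.167 and 0.156 CPM in EV-treated A, B and C, 12.9-fold lower without overlap, with a log2 change of -3.69 ± 0.27 (SE, adjusted p = 1.89e-06). Kif18b measured 1.06, 1.64 and 0.743 CPM in the control libraries and 0.121, 0.044 and 0.0312 CPM in the EV-treated ones, with a log2 change of -4.11 ± 0.52 (SE, adjusted p = 8.08e-05). Kif2c measured 1.65, 2.7 and 1.72 CPM in the control libraries and 0.339, 0 and 0.0703 CPM in the EV-treated ones, with a log2 change of -3.87 ± 0.77 (SE, adjusted p = 0.00153), and EV-treated B held 0 of its counts. Kif18b, Kif2c and Kif14, a motor of the dividing cell's midbody with a log2 change of -2.73 ± 0.59 (SE, adjusted p = 0.00239, call lost with the covariate), rest on few counts in EV-treated libraries, so their size is poorly fixed.

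Kif15, which works beside Kif11 in holding the spindle bipolar, measured 2.54, 2.46 and 2.5 CPM in control A, B and C and 0.743, 0.677 and 0.648 CPM in EV-treated A, B and C, with a log2 change of -1.86 ± 0.19 (SE, adjusted p = 1.66e-05, call lost in the top bin) and a narrow spread in both groups. Kif20a, a motor of the central spindle and of cytokinesis, measured 5.18, 6.85 and 4.66 CPM in the control libraries and 1.82, 2.5 and 2.4 CPM in the EV-treated ones, with a log2 change of -1.31 ± 0.20 (SE, adjusted p = 0.000267, call lost with the covariate). Its relative Kif20b measured 3.63, 3.45 and 4.14 CPM in the control libraries and 2.09, 2.17 and 1.4 CPM in the EV-treated ones, with a log2 change of -0.99 ± 0.20 (SE, adjusted p = 0.0018). The chromosome-bound motors Kif22 and Kif4 also fell. Kif22 measured 3.68, 4.75 and 3.3 CPM in the control libraries and 2.1, 2.12 and 2.07 CPM in the EV-treated ones, with a log2 change of -0.90 ± 0.18 (SE, adjusted p = 0.0015, call lost in the top bin or with the covariate). Kif4 measured 2.85, 3.37 and 2.89 CPM in the control libraries and 1.95, 2.07 and 1.37 CPM in the EV-treated ones, with a log2 change of -0.76 ± 0.20 (SE, adjusted p = 0.0077, call lost in the top bin or with the covariate). In all these genes the lowest control library lay above the highest EV-treated one. Kif18a, which dampens chromosome movements, was not called (log2 fold change -0.61, adjusted p = 0.19, called as fallen without EV-treated B or with library totals).

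Kif23 and Kifc5b went the other way. Kif23, which encodes the motor subunit of centralspindlin, the complex that marks the site of cytokinesis, measured 3.24, 6.82 and 3.89 CPM in control A, B and C and 11.3, 11 and 9.82 CPM in EV-treated A, B and C. It rose 2.31-fold without overlap, with a log2 change of 1.21 ± 0.25 (SE, adjusted p = 0.00179, call lost in the top bin). Racgap1, which encodes the other subunit of that complex and was on the spindle list, measured 7.05, 10.3 and 6.37 CPM in the control libraries and 3.13, 4.18 and 2.32 CPM in the EV-treated ones, with a log2 change of -1.30 ± 0.25 (SE, adjusted p = 0.00115). Kifc5b, listed here with the minus-end motor gene Kifc1, of which it is a near copy, measured 1.23, 1.28 and 1.29 CPM in the control libraries and 3.2, 2.52 and 2.88 CPM in the EV-treated ones, with a log2 change of 1.18 ± 0.18 (SE, adjusted p = 0.000256), while Kifc1 itself was not called, at 3.2, 3.91 and 2.93 CPM in the control libraries and 3.49, 3.76 and 3.08 CPM in the EV-treated ones, with a log2 change of 0.04 ± 0.17 (SE, adjusted p = 0.845). Reads of these copies may have been shared between them, so neither value is certain. With the sex-linked covariate 5 mitotic kinesins fell and 2 rose. In the single exon bin with most counts per gene 5 fell and 1 rose, where fewer counts stand behind each gene.

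**Figure D4:**
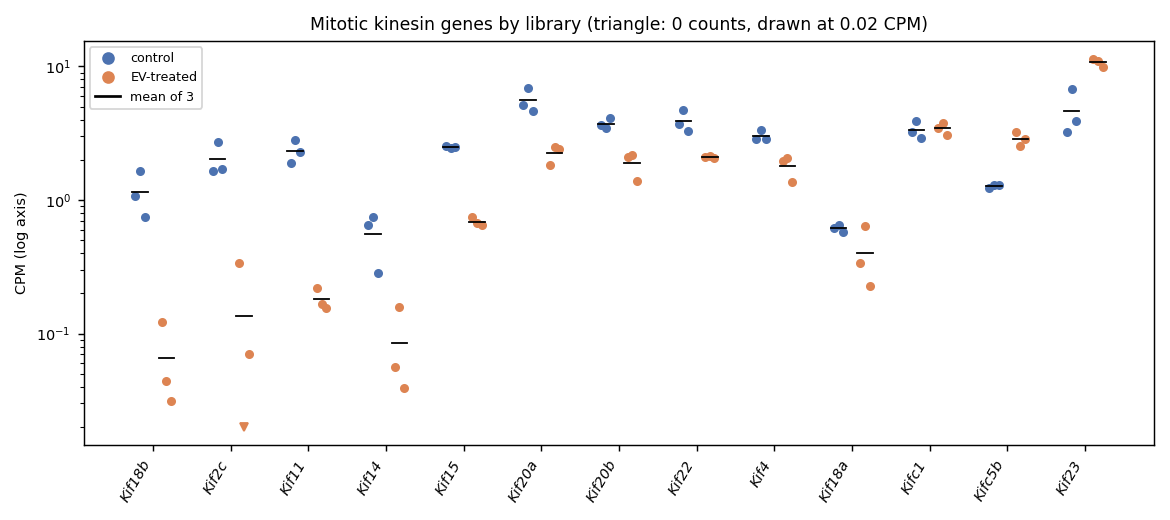
CPM of the 13 tested mitotic kinesin genes in each library (log axis), ordered from the deepest fall to the highest rise, with the mean of 3 libraries as a line. Kif18b, Kif2c, Kif11 and Kif14 drop by the largest steps, Kifc1 overlaps, and Kifc5b and Kif23 lie higher in all 3 EV-treated libraries. The triangle is a library with 0 counts.

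The other spindle and mitosis genes, a list of 26, mostly fell too: 18 fell, 3 rose and 5 were not called, with a median of -1.09. Over all entries tested 33.5% fell and 33% rose. Cenpe, the kinetochore kinesin whose symbol keeps it outside the Kif family name, measured 7.03, 7.88 and 8.23 CPM in the control libraries and 1.78, 2.22 and 2.08 CPM in the EV-treated ones, with a log2 change of -1.93 ± 0.15 (SE, adjusted p = 3.11e-06). Anln, a scaffold of the cytokinetic ring, had a log2 change of -2.76 ± 0.26 (SE, adjusted p = 8.94e-06), and Cdc20, the activator of the anaphase-promoting complex, had a log2 change of -3.22 ± 0.34 (SE, adjusted p = 2.19e-05). Bub1, a spindle checkpoint kinase, rose from 2.07, 2.7 and 2.71 CPM in the control libraries to 15.1, 14.6 and 14.1 CPM in the EV-treated ones, with a log2 change of 2.55 ± 0.15 (SE, adjusted p = 3.53e-07). Hmmr (1.17), which binds spindle microtubules, and Kntc1 (1.08), a kinetochore protein, also rose. The list was chosen with earlier results of these data known, and its direction is a description. In bulk RNA, fewer dividing cells and less of these transcripts per cell cannot be told apart. Neural stem and progenitor cells also divide, and of 10 markers of those cells 4 were tested. Nes and Fabp7 fell (log2 fold changes of -4.79 and -3.72), 1 rose with a log2 fold change of 2.56, and 1 was not called. The summed level of the 10 markers was 56.1 to 98.2 CPM over the control libraries and 6.28 to 7.7 CPM over the EV-treated ones. Egfr reached at most 3.63 CPM in any library. Sox2, Dcx, Sox11, Hes5 and Olig2 were at or near 0, with no library above 0.308 CPM. The part of such cells in the kinesin values was not tested.

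Most promoters of the mitotic kinesins held one short element. Genes switched on late in the cell cycle often carry the cell cycle genes homology region (CHR), whose letters are TTTGAA, near the start site, together with CCAAT boxes bound by the factor NF-Y. RefSeq windows on GRCm38.p6, from 250 bases before to 50 after the start site, were at hand for 59 of 76 members. The 250 bases before the start are shown for the mitotic kinesins with the deepest falls and for Kif23, which rose, with CCAAT and TTTGAA (or their reverse complements ATTGG and TTCAAA) in capitals, so that the elements can be seen where they lie.
Kif18b: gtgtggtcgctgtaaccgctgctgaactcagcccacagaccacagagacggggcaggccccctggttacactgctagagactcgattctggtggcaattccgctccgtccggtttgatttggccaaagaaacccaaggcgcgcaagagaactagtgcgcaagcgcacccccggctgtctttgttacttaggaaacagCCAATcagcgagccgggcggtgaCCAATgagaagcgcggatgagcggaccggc
Kif2c: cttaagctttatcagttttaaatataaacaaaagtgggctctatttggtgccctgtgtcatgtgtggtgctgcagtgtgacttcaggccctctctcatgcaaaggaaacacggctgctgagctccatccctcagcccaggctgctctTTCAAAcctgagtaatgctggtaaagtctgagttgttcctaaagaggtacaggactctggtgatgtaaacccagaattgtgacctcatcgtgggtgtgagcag
Kif11: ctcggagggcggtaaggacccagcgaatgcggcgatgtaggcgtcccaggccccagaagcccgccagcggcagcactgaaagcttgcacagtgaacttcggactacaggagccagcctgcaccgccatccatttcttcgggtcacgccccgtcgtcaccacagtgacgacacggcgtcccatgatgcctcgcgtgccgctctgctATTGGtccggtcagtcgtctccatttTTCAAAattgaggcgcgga
Kif23: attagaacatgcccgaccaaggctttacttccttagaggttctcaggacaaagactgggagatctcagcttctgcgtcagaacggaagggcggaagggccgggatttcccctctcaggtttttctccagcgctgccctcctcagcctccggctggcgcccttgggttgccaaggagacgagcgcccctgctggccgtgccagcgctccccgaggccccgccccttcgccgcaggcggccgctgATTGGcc
Kif18b (chr11:102925125-102925374), Kif2c (chr4:117178773-117179022) and Kif23 (chr9:61946800-61947049) read from the minus strand and Kif11 (chr19:37376132-37376381) from the plus strand. In Kif11 TTCAAA began at -19 and ATTGG at -45 from the start site, and in Kif18b CCAAT began at -53 and at -30. The TTTGAA letters of Kif18b and Kif23 lay in the 50 bases after the start. Over the whole window, on either strand, TTTGAA was present in 11 of 13 mitotic kinesins, 84.6%, beside 20.2% of 27025 genes and 1 of 12 transport kinesins. All 8 fallen mitotic kinesins with a window held it, and so did both that rose and Kifc1, which was not called. Kif18a and Kif2b did not hold it. CCAAT was present in 9 of 13 mitotic kinesins, beside 41.1% of all genes. A match is a run of letters and not a measured binding site, and these letters did not separate mitotic kinesins that fell from those that rose. The RefSeq start of Kif2c lies inside the span that the deposited files give the gene.

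On the TMM scale transport kinesins showed no common direction. Of 20 tested, 7 rose, 7 fell and 6 were not called, beside 33% risen and 33.5% fallen over all entries. With the 4 light chains 8 rose and 10 fell. Of that set of 24, 3 rose and 6 fell with the sex-linked covariate, 3 rose with library totals, 5 with upper-quartile scaling and 4 without EV-treated A. The most abundant per kilobase was Kif1c, a kinesin-3 motor that carries vesicles toward plus ends, at 49.4 to 67.6 CPM per kb from control to EV-treated libraries. It measured 391, 359 and 339 CPM in control A, B and C and 520.2, 439 and 529.9 CPM in EV-treated A, B and C, with a log2 change of 0.45 ± 0.12 (SE, adjusted p = 0.00793, call lost with library totals or with the covariate or without EV-treated A) and no overlap. Kif5b, the conventional kinesin heavy chain of most cells, came next at 29.1 to 31.2 CPM per kb and was not called. Its values were 211, 203 and 231 CPM in the control libraries and 223, 223 and 246 CPM in the EV-treated ones, with a log2 change of 0.10 ± 0.11 (SE, adjusted p = 0.424, called in the top bin), so the groups overlapped. Kif1b, another kinesin-3 motor, was not called either (0.20), nor were Kif13a (-0.24, called in 4 of 17 alternatives and among them without EV-treated C), Kif21a (0.03), Kif1bp (0.21, called in the top bin or with the letter as a block) or Kifap3 (0.16), the last of which encodes the adaptor of kinesin-2.

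The clearest rise in the transport set was that of Kif21b, a kinesin-4 motor that also slows microtubule growth and is known from neurons and immune cells. Kif21b measured 91.3, 55.1 and 67.6 CPM in control A, B and C and 311, 249 and 394 CPM in EV-treated A, B and C. Its EV-treated values were all above the controls, 4.46-fold on average, with a log2 change of 2.16 ± 0.22 (SE, adjusted p = 1.62e-05). Among the subunits of kinesin-2, which drives transport in cilia and of late endosomes, Kif3a rose from 25.6, 26.9 and 26.3 CPM in the control libraries to 44.5, 45 and 46.5 CPM in the EV-treated ones, with a log2 change of 0.79 ± 0.09 (SE, adjusted p = 3.85e-05). Kif3c rose from 21.5, 22 and 23.8 CPM in the control libraries to 32, 32.9 and 33 CPM in the EV-treated ones, with a log2 change of 0.54 ± 0.10 (SE, adjusted p = 0.000682, call lost with library totals or with the covariate). Kif3b, the usual partner of Kif3a, fell slightly, from 52.9, 50.4 and 47.1 CPM in the control libraries to 41.7, 41.2 and 43.1 CPM in the EV-treated ones, with a log2 change of -0.25 ± 0.09 (SE, adjusted p = 0.0351, call lost in 7 of 17 alternatives and among them without control A or control B or EV-treated A or EV-treated B). Kif1a, a kinesin-3 motor of synaptic vesicle precursors, measured 14.2, 9.97 and 19.9 CPM in the control libraries and 21.9, 20.9 and 24.7 CPM in the EV-treated ones, with a log2 change of 0.62 ± 0.21 (SE, adjusted p = 0.0287, call lost in 7 of 17 alternatives and among them without control A or control B or EV-treated A or EV-treated C). With the covariate its log2 change was -0.14. Of 8 neuronal markers 1 rose and 1 fell, and their summed level was 0.455 to 0.583 CPM over the control libraries and 0.791 to 1.11 CPM over the EV-treated ones.

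Kifc3, a minus-end motor found at the Golgi and at cell junctions, made the deepest fall of the transport set. It measured 39, 36.5 and 30.1 CPM in control A, B and C and 3.83, 3.83 and 4.53 CPM in EV-treated A, B and C. The lowest control value was well above the highest EV-treated one and the mean was 8.66-fold lower, with a log2 change of -3.11 ± 0.14 (SE, adjusted p = 8.11e-08). Kif5a and Kif5c, the conventional kinesin genes known best from neurons, were low and fell further. Kif5a measured 2.58, 2.4 and 1.75 CPM in the control libraries and 0.404, 0.281 and 0.547 CPM in the EV-treated ones, with a log2 change of -2.44 ± 0.29 (SE, adjusted p = 5.24e-05). Kif5c measured 2.07, 2.04 and 1.28 CPM in the control libraries and 0.484, 1.22 and 0.703 CPM in the EV-treated ones, with a log2 change of -1.16 ± 0.35 (SE, adjusted p = 0.0142, call lost with the covariate). Kifc2, another minus-end motor, measured 2.98, 2.74 and 1.85 CPM in the control libraries and 0.444, 0.554 and 1.07 CPM in the EV-treated ones, with a log2 change of -1.87 ± 0.34 (SE, adjusted p = 0.000882, call lost with the covariate). The endosomal motors Kif13b and Kif16b fell at higher levels. Kif13b measured 70.9, 58.1 and 84.6 CPM in the control libraries and 38.5, 33.1 and 47.2 CPM in the EV-treated ones, with a log2 change of -0.85 ± 0.17 (SE, adjusted p = 0.00136). Kif16b measured 41.1, 36.7 and 38.3 CPM in the control libraries and 23.7, 19.9 and 24.1 CPM in the EV-treated ones, with a log2 change of -0.78 ± 0.11 (SE, adjusted p = 0.000174).

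Light chains link conventional kinesin to cargo, and 3 of 4 fell. Klc4 was the most abundant per kilobase in control libraries, at 68.1 to 13.8 CPM per kb from control to EV-treated. It measured 174, 164 and 136 CPM in control A, B and C and 31.7, 33.8 and 30.4 CPM in EV-treated A, B and C, 4.94-fold lower without overlap, with a log2 change of -2.31 ± 0.12 (SE, adjusted p = 2.1e-07). Klc1 measured 101, 98.9 and 82.5 CPM in control A, B and C and 48.3, 45.4 and 53 CPM in EV-treated A, B and C, 1.92-fold lower, with a log2 change of -0.94 ± 0.12 (SE, adjusted p = 6.04e-05). Klc3 fell slightly, with a log2 change of -0.37 ± 0.12 (SE, adjusted p = 0.0244, call lost in the top bin or with the covariate or without control A or control C or EV-treated A). Klc2 rose, from 48.3, 46.7 and 44.2 CPM in the control libraries to 62.8, 53.7 and 61.1 CPM in the EV-treated ones, with a log2 change of 0.35 ± 0.10 (SE, adjusted p = 0.0114, call lost in 5 of 17 alternatives and among them without EV-treated A), but stood at -0.012 with library totals. The order of the light chains thus changed from Klc4, Klc1 and Klc2 in control libraries to Klc2, Klc4 and Klc1 in EV-treated ones, where the 3 levels lay within 12.02 to 14.3 CPM per kb and were not tested against each other.

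The remaining kinesins changed in both directions, with 3 of 7 risen and 4 fallen. Kif2a, a microtubule depolymeriser that trims side branches and acts at spindle poles, rose most. It measured 24, 25.2 and 32 CPM in control A, B and C and 173, 152 and 171 CPM in EV-treated A, B and C. The groups were 6.09-fold apart without overlap, with a log2 change of 2.61 ± 0.14 (SE, adjusted p = 1.92e-07), against the fall of its mitotic relative Kif2c. Kif7, which transmits Hedgehog signals in cilia, measured 7.1, 6.3 and 7.55 CPM in the control libraries and 2.22, 1.05 and 3.22 CPM in the EV-treated ones, with a log2 change of -1.69 ± 0.33 (SE, adjusted p = 0.00125). Kif9, a motor of motile cilia, measured 3.47, 3.81 and 3.62 CPM in the control libraries and 1.94, 1.51 and 1.49 CPM in the EV-treated ones, with a log2 change of -1.14 ± 0.17 (SE, adjusted p = 0.000273), and Kif19a, which limits the length of cilia, rose from 1.25, 1.32 and 1.53 CPM in the control libraries to 3.22, 3.07 and 2.19 CPM in the EV-treated ones, with a log2 change of 1.05 ± 0.21 (SE, adjusted p = 0.0014, call lost in the top bin or with the covariate). Kif24, which acts at centrioles, had a log2 change of -1.16 ± 0.35 (SE, adjusted p = 0.014, call lost without EV-treated A). Kif26b, which is active in Wnt signalling, went from 1.65, 1.36 and 0.737 CPM to 1, 0 and 3 counts in EV-treated A, B and C. Its log2 fold change of -6.72 (adjusted p = 1.02e-05) rests on these few counts. Kif27, joined to a microRNA gene, had at most 20 counts and a log2 change of 1.18 ± 0.46 (SE, adjusted p = 0.0433, call lost in 12 of 14 alternatives and among them without control A or control B or control C or EV-treated A or EV-treated B or EV-treated C).

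Some of the calls belong to a neighbour. Entries of genes whose exons overlap are joined in the files, and 5 members were affected. The Kif17 entry had the highest rise of any member, a log2 change of 2.62 ± 0.41 (SE, adjusted p = 0.000302). Bins of Kif17 alone, a dendritic motor in neurons, held 6, 16 and 15 counts in control A, B and C and 10, 10 and 21 counts in EV-treated A, B and C, and those of Sh2d5 alone 12, 11 and 14 counts in control A, B and C and 150, 52 and 139 counts in EV-treated A, B and C. The rise was thus in the bins of Sh2d5. Likewise the Kif28 entry, with a log2 change of 0.31 ± 0.11 (SE, adjusted p = 0.0353, call lost in 9 of 16 alternatives and among them without control A or control B or EV-treated A or EV-treated C), took nearly all of its counts from Ahctf1, a nuclear pore gene, and bins of Kif28 alone held 0, 1 and 2 counts in control A, B and C and 0, 13 and 3 counts in EV-treated A, B and C. With library totals the log2 change of that entry was -0.051. For Kif1c, joined to Mir6925, and for Stmn1 the counts came from the member's own bins. With entries of single genes alone, 5 transport kinesins and light chains rose in place of 8. Without a known strand setting, reads of genes on opposite strands of one place cannot be told apart.

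The deposited counts are per exon bin, so a bin can be set against its own gene. Bin usage was called in 25 of 1245 tested member bins, beside 4.19% of all bins tested (diffSpliceDGE in edgeR, adjusted p under 0.05). Of these, 15 were called again in each of the 6 fits that left out a library, all bins of Klc4, Mapre2, Kif2a and Tuba4a among them, and 10 lost the call in at least one. Klc4 showed the plainest pattern. Its 4 bins nearest the 5′ end went from 11.7, 10.8 and 8.62 CPM in control A, B and C to 5.21, 5.49 and 5.08 CPM in EV-treated A, B and C, while the other 12 went from 162, 153 and 128 to 26.5, 28.3 and 25.4 CPM. The bin log2 fold changes were -1.11 to -0.82 in the first set and -2.64 to -2.22 in the second. The third bin from the 5′ end, a coding exon of both annotated Klc4 transcripts, went from 2.08% ± 0.0412 to 5.43% ± 0.342 of the gene's counts (SD, n = 3, adjusted p = 6.06e-10). The bins split at one place, between the fourth and the fifth.

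Bins are numbered here from the 5′ end over all bins of a gene. Mapre2 had 6 called bins. Near the 5′ end, bins of one first exon made up less of the gene's counts (0.118% ± 0.0137 to 0.0175% ± 0.00679 in bin 2, SD, n = 3). Bins of another first exon made up more (0.166% ± 0.041 to 0.587% ± 0.0251 in bin 5, SD, n = 3). A lower share was not always a lower level, as the whole gene rose with a log2 change of 1.54. Bin 2 had a log2 change of -1.23, but bin 3, whose share was also lower, had -0.02. A long 3′ untranslated bin of Mapre2 went from 5.78% ± 0.405 to 0.864% ± 0.17 (SD, n = 3, adjusted p = 3.11e-33), and the last exon of a shorter transcript went from 0.117% ± 0.0317 to 0.332% ± 0.0152 (SD, n = 3). The distal 3′ untranslated bins of Kif3a went from 3.95% ± 0.176 to 1.24% ± 0.586 in the last bin (SD, n = 3, adjusted p = 8.55e-10) and from 2.11% ± 0.209 to 1.01% ± 0.52 in the one before it (call lost without EV-treated A). In Kif2a the last bin went from 6.15% ± 0.287 to 3.11% ± 0.374 (SD, n = 3, adjusted p = 3.34e-06), in Kif1c from 0.893% ± 0.106 to 0.459% ± 0.054 (adjusted p = 5.54e-06) and in Tuba4a from 1.09% ± 0.306 to 0.0935% ± 0.0544 (adjusted p = 7.3e-06). The Kif2a bin overlaps Dimt1 and the Tuba4a bin Stk16, each on the opposite strand. Lower use of the last bin was the common direction throughout: of 8526 last bins tested over all entries, 721 were called lower and 188 higher, and the 4 called among 40 in members, those of Kif3a, Kif2a, Kif1c and Tuba4a, were all lower. The first bin of Tubb5 and that of Tuba1b, in the 5′ untranslated region, made up more of their gene's counts, from 0.172% ± 0.0315 to 0.300% ± 0.00596 and from 0.0568% ± 0.00704 to 0.159% ± 0.00903 (SD, n = 3). The call of that Tubb5 bin was lost without control A or control B, and that of the Tuba1b bin in 5 of 6 fits that left out a library, all but the one without EV-treated C. In Mapre1 the fifth bin went from 7.29% ± 0.74 to 11.4% ± 0.526 (call lost without control A or control B or EV-treated A), and in Kif1c the first bin from 0.0405% ± 0.0224 to 0.193% ± 0.111 (SD, n = 3). The other called bins lay in Tubb5, Kif1c, Kif5b, Tubgcp3 and Tubgcp4, at shares of at most 2.21% of their gene's counts. Each of these lost its call in some fit that left out a library. Some called bins had too few counts to be tested again with 50 counts required in 3 libraries. They were bins 2 and 3 of Mapre2, the first bins of Tuba1b and Kif1c, the last bin of Tuba4a, bin 32 of Tubgcp3 and bin 37 of Kif5b.

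**Figure D5:**
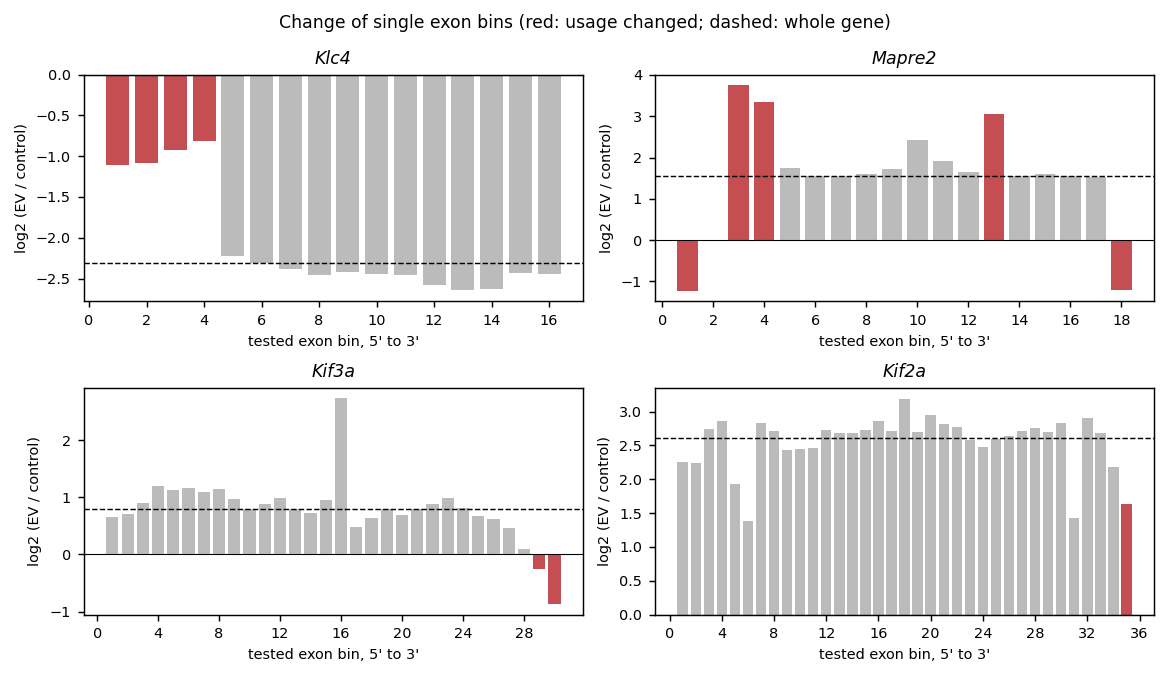
Log2 fold change (EV-treated over control) of each tested exon bin of Klc4, Mapre2, Kif3a and Kif2a, numbered from the 5′ end among tested bins only, with the whole gene as a dashed line. Red bars are bins whose usage was called as changed. In Klc4 the 4 bins nearest the 5′ end stand at -1.11 to -0.82, above the other 12, and in Kif3a and Kif2a the bins at the 3′ end lie below the gene.

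Genes that act on microtubules or with these motors, from lists chosen with earlier results of these data known, moved in both directions. The counts of each list stand beside 33% risen and 33.5% fallen over all entries tested. Of the genes whose products fold, sever or modify tubulin, listed with the tubulin genes Tubd1 and Tube1, 6 of 28 tested rose and 13 fell. Among those that rose, Ttll11, a polyglutamylase, had a log2 change of 2.35 ± 0.25 (SE, adjusted p = 2.17e-05), Katna1, the katanin that severs microtubules, had a log2 change of 0.95 ± 0.11 (SE, adjusted p = 3.43e-05), and Sirt2, a tubulin deacetylase, had a log2 change of 0.88 ± 0.11 (SE, adjusted p = 6.77e-05). Tbcc, a tubulin folding cofactor, fell with a log2 change of -1.63 ± 0.16 (SE, adjusted p = 1.41e-05), Vash2, which removes the terminal tyrosine of alpha-tubulin, with a log2 change of -1.66 ± 0.20 (SE, adjusted p = 4.74e-05), and Spast, the severing enzyme spastin, with a log2 change of -0.60 ± 0.09 (SE, adjusted p = 0.000338). Of the other microtubule-binding proteins, 11 of 28 tested rose and 13 fell. Map1b, a microtubule-associated protein of neurites, measured 0.402, 0.638 and 0.679 CPM in the control libraries and 6.35, 5.48 and 8.64 CPM in the EV-treated ones, with a log2 change of 3.56 ± 0.26 (SE, adjusted p = 1.68e-06). Ckap5, a microtubule polymerase, and Map9 rose by log2 fold changes of 1.08 and 1.94. Mapre3, which encodes EB3, fell with a log2 change of -1.27 ± 0.13 (SE, adjusted p = 1.75e-05), so that the 3 EB genes moved by 1.54, 0.35 and -1.27 for Mapre2, Mapre1 and Mapre3. Tacc2 and Tacc1, centrosomal proteins that work with Ckap5, fell, with log2 fold changes of -3.72 and -1.41.

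For dynein and dynactin, the motor that walks the other way, 10 of 26 tested rose and 9 fell. These are 38.5% and 34.6%, near the 33% and 33.5% of all entries tested. Dync1li1, a light intermediate chain that binds cargo adaptors, measured 58.4, 63.9 and 59.1 CPM in the control libraries and 167, 159.9 and 142 CPM in the EV-treated ones, with a log2 change of 1.37 ± 0.11 (SE, adjusted p = 2.53e-06). Hook1 and Hook2, which link dynein to endosomes and other cargo, rose by log2 fold changes of 3.49 and 1.58. Nde1, a dynein regulator, fell with a log2 change of -1.79 ± 0.12 (SE, adjusted p = 8.37e-07), and Dynll2 (-0.88) and Dctn6 (-0.72) also fell. For the cargo adaptors of kinesins, 10 of 23 tested rose and 7 fell. Rab6a, a Golgi GTPase, measured 71.9, 75.1 and 72.2 CPM in the control libraries and 214, 217 and 227 CPM in the EV-treated ones, with a log2 change of 1.59 ± 0.10 (SE, adjusted p = 4.99e-07). Mapk8ip3 (0.89), a scaffold that binds light chains, and Rhot1 (0.57), the mitochondrial adaptor Miro1, rose as well. Kidins220, a cargo of Kif5, measured 145, 117 and 143 CPM in the control libraries and 29.2, 25.4 and 36.3 CPM in the EV-treated ones, with a log2 change of -2.15 ± 0.15 (SE, adjusted p = 1.41e-06), and Mapk8ip1 (-1.64) and Borcs5 (-1.04), an adaptor of lysosomes, fell.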

How the data were processed

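RNA of 6 samples of cultured microglia was selected for polyadenylated transcripts and sequenced in pairs, per the labels' protocols. Trimmomatic 0.36, STAR, Subread and DESeq2, with build GRCm38, are listed per the submitters' processing notes. The annotation release, the strand setting and the treatment of reads that fit several copies were not given in the sources used here. The deposited values are raw counts per exon bin, per the file headers. A table of the whole series holds 6 further columns of per-sample values, which were not used because their names match no sample title.

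Bins were summed per gene entry (48005, of which 1194 join several genes), and symbols were found for 49298 of 49644 identifiers. filterByExpr left 16605 entries, TMM scaled them (factors of 0.855 to 1.16), and edgeR 4.0.16 in R 4.3.3 tested them (glmQLFit, glmQLFTest, 2-sided, Benjamini-Hochberg over all entries, threshold 0.05). Bin usage was tested with diffSpliceDGE. Each SE was derived from the F statistic (log2 change over its square root). No pair of libraries of a group matched to within sampling error (chi-square over degrees of freedom 82.9 to 248). On simulated data of 12783 genes, the gene test for EV-treated against control found 50 of 50 genes set to a log2 change of -2, 49 of 50 at 2, 33 of 50 at -1 and 42 of 50 at 1. It also called 5 of 12583 unchanged genes. The simulation changed few genes, equally in both directions. It therefore gives no error rate for data in which 66.5% of entries were called.

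The members and lists were chosen with earlier results of these data known. Values in every library are given for called members whose groups did not overlap and whose log2 CPM averaged 1 or more, up to 6 rises and 6 falls in each role, for the 3 most abundant members of each role, and for others where a result turned on them. Up to 3 rises and 3 falls with the smallest p are named from each other list, and further spindle genes such as Racgap1 were chosen after their values were seen. Start and end of 54 of 71 single-gene members equal those in GENCODE vM21. The tests were repeated with DESeq2 1.42.0 and limma-voom (limma 3.58.1), with scaling by RLE, upper quartile or library totals, unfiltered or with 50 counts required in 3 libraries, and without each library in turn. They were also repeated with the letter as a block, in the bin with most counts, in entries of single genes and with the sex-linked covariate. Sequences were read with Python 3.11.15, pandas 2.3.3 and Biopython 1.88, and figures were drawn with matplotlib 3.10.9.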

Additional observations from a re-analysis of the deposited data

How the results depend on the processing

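Of 23 risen members 11 were called in the same direction under every one of the 17 alternatives that gave a value, and of 28 fallen members 15; without the sex-linked covariate these numbers were 11 and 21. Tubb6, Kif2a, Mapre2, Klc4, Kifc3, Stmn1 and Kif11 were among them. So was the Kif17 entry, whose rise was in the bins of Sh2d5 and not in those of Kif17. The covariate, in which the groups do not overlap, left 7271 gene entries called, 14 members risen and 17 fallen, 5 mitotic kinesins fallen, and 3 transport kinesins and light chains risen and 6 fallen, and turned Kif1a, alone among the called members, to -0.14. Library totals in place of TMM gave 13 risen and 34 fallen members, and 3 risen and 11 fallen transport kinesins and light chains. They turned 14 members, of which 4 had been called: Tuba1c (-0.038), Klc2 (-0.012), Mapre1 (-0.019) and Kif28 (-0.051). The other 10 ran from -0.36 to -0.16, and of these Tubgcp2 (-0.31) and Tubgcp3 (-0.36) were then called. The single bin with most counts gave 1 risen and 5 fallen mitotic kinesins and turned Mapre1, alone among the called members, to -0.055. Risen transport kinesins and light chains numbered 5 with upper-quartile scaling, beside 11 fallen, and 5 with entries of single genes, beside 10 fallen. Leaving out each library gave 10190 to 10918 entries called, 16 to 22 members risen, 25 to 28 fallen, 2 mitotic kinesins risen and 9 to 10 fallen, 4 to 8 transport kinesins and light chains risen (4 without EV-treated A) and 8 to 11 fallen, and 18 to 31 member bins with changed usage, with 15 of the 25 bins called in each of these fits. The cause of these changes was not tested. The Tubb6 share differed by 28.7 percentage points in the last bin and 18.9 without division by length, and that of Tuba1b by 10.3 and 4.84.

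With the replicate letter as a block, 11609 entries, 23 risen and 30 fallen members and 32 member bins were called. Deviations of libraries with the same letter correlated at 0.035, 0.167 and 0.210 for A, B and C. Those with different letters correlated at -0.199 to 0.034, so each library was closest to the one with its own letter. The labels state no pairing, and whether the letters pair the samples was not tested. The main fits treat the libraries as unpaired. Low counts limit Kif18b, Kif2c, Kif14, Kif26b and Kif27, whose EV-treated or control libraries hold few counts, so that their sizes are poorly fixed.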
